A study of Mus musculus with 2 samples.

Results

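The genes described here encode secreted Wnt ligands, their frizzled receptors, the R-spondins that enhance Wnt signalling, and 2 families of secreted antagonists, the Sfrp and Dkk proteins. Single genes were included by symbol alone, as every protein-coding mouse gene named Wnt, Fzd, Rspo, Sfrp or Dkk followed by a number. This gave 41 of 21887 protein-coding genes, made up of 19 Wnt, 10 Fzd, 4 Rspo, 4 Sfrp and 4 Dkk genes. The set as a whole was picked with earlier results of these data known. Chromatin accessibility around them was read from ATAC-seq, in which the transposase Tn5 cuts and tags open DNA. The assay was run on GFP-positive cells sorted from C57/Bl6 mouse embryos carrying the Hb9::GFP reporter, at embryonic day 10.5. There was 1 group with 2 replicates, which the authors pooled into a single filtered peak list, and no control or second condition. Every value below is therefore a description without replicate error or test. The reporter follows Hb9, an older name of the motor neuron homeobox gene Mnx1, and the labels call the cells motor neurons without saying whether the replicates came from separate litters.

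Wnt proteins are lipid-modified secreted ligands that bind a frizzled receptor together with a co-receptor such as Lrp6. In the canonical branch, binding keeps β-catenin from being destroyed and lets it act with TCF/LEF factors in the nucleus. Other branches act on cell polarity and the cytoskeleton without β-catenin. In the embryonic spinal cord, Wnt1 and Wnt3a are known as signals of the roof plate that favour proliferation and dorsal fates. Frizzled receptors, Fzd3 above all, are known to guide growing axons. Sfrp proteins resemble the ligand-binding domain of frizzled receptors and bind Wnts, whereas Dkk1 blocks the co-receptor.

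The list held 138387 entries, each a summit with a fold over the caller's local background, in 104069 intervals of 379 bp median width. The reads at each summit were recovered from the deposited fold and p-value, with a median of 24 and a smallest value of 11. A stretch without an entry was therefore below the caller's limit and is not shown to be closed. Because the cells were profiled in bulk, a site open in few cells and a site weakly open in most of them cannot be told apart. Markers were checked by asking whether a summit lay within 1 kb of either gene end. Such an entry was found at 5 of 6 motor neuron markers (all but Isl2), 4 of 4 neural progenitor, 4 of 4 roof plate, 4 of 4 floor plate, 4 of 4 mesenchymal, 2 of 4 endothelial and 1 of 4 blood markers, against 65.5% of all protein-coding genes. The motor neuron marker Isl2 had 5 entries, none at a gene end. The strongest was 7.096-fold with 120 reads, inside the gene and 2.364 kb from the nearer end. Markers of other cell types also carried gene-end entries, and their part in the values below was not tested. Of the blood markers, the globin gene Hbb-y and the red cell regulator Gata1 had no entry at all. Spi1 had a gene-end entry of 10.98-fold with 128 reads. Ptprc had 16 entries, none at a gene end, the strongest 12.05-fold with 118 reads.

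Nearly every gene of the set had accessible chromatin beside it. An entry was counted for a gene when its summit lay inside the gene, or within 100 kb with that gene's end the nearest of any protein-coding gene. By this rule the 41 genes held 389 different entries, or 397 when the 8 shared by Wnt3 and Wnt9b were counted for each. The median was 10 entries per gene, against 3 over all protein-coding genes. Counts ran from 0 at Dkk4 to 24 at Dkk2, against 0 to 162 over all genes. At least 10 entries were found at 21 of the 41 genes, against 16.4% of all genes, and no entry at 1 of the 41, against 17.0% of all genes. The families had similar medians, with 9 for Wnt, 9 for Fzd, 10 for Rspo, 9 for Sfrp and 9.5 for Dkk genes.

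**Figure D1:**
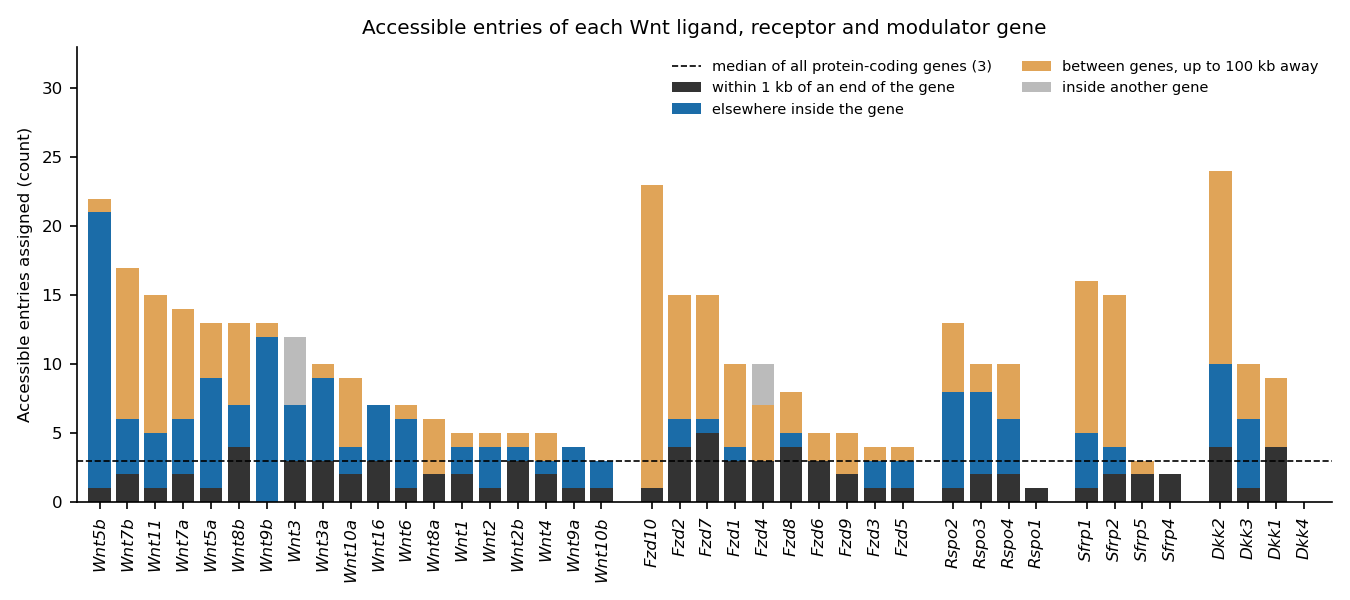
Number of accessible entries (vertical axis, count) of each gene, grouped by family and divided by position; the dashed line is the median of all protein-coding genes (3). Dkk2, Fzd10 and Wnt5b were the highest with 24, 23 and 22 entries, and Dkk4 had none.

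The stretch of sequence in which an entry could be counted differed between genes. It had a median of 79.0 kb in the set and 49.5 kb over all genes. Per 100 kb of that stretch, the median was 11.3 entries in the set and 6.0 over all genes. By family it was 16.5 for Wnt, 9.6 for Fzd, 4.43 for Rspo, 10.6 for Sfrp and 8.12 for Dkk genes, so that the R-spondins alone had a median below that of all genes. Wnt1 had the highest density, 33.8 entries per 100 kb, in a stretch of 14.8 kb. Fzd2 followed with 26.6 and Wnt8a with 26.5. Rspo1 had the lowest density above 0, with 1.85 entries per 100 kb. The typical entry of the set was no stronger than elsewhere. The median fold was 3.09 for its entries and 3.14 for those of all genes, and the median reads were 27 and 25. Of the set's entries, 84.4% had a q-value under 0.05, against 82.8% of those of all genes.

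**Figure D2:**
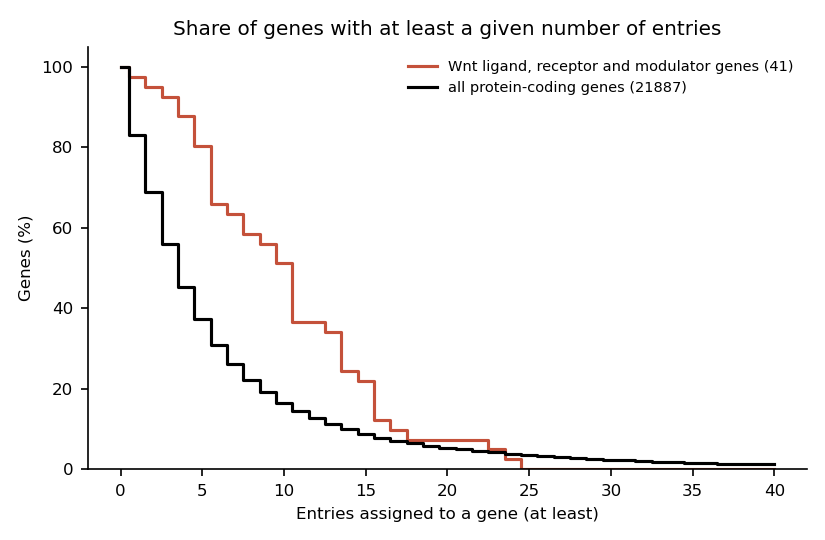
Share of genes (vertical axis, percent) with at least the number of entries on the horizontal axis, for the 41 Wnt ligand, receptor and modulator genes (red) and all 21887 protein-coding genes (black). The red line lies above the black line at 10 entries, where 51.2% of the set and 16.4% of all genes remain.

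A summit within 1 kb of a gene end was found at 39 of the 41 genes, against 65.5% of all protein-coding genes. The 2 exceptions were Wnt9b and Dkk4. The RefSeq promoter table used here held a transcription start for 27 of the 41 genes. Of these, 26 had a summit within 1 kb of it, against 66.5% of the 17492 genes with such a start. The exception was Wnt8b, known from the developing forebrain, whose nearest summit lay 1225 bp before its start. For Wnt9b, a ligand of kidney tubule formation, the RefSeq start lay 25451 bp inside the annotated gene. A summit of 5.12-fold and 33 reads stood 7 bp from that start, so this gene lacked an entry at its annotated ends but not at its start.

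The families differed in how deep these gene-end entries were. For each gene the deepest entry at either gene end was taken, even where, as at Wnt6 and Wnt8b, it lay away from the start. Its median was 43.5 reads for Wnt genes with a range of 18 to 96, and 138.5 reads for Fzd genes with a range of 72 to 206. Rspo genes had a median of 50 reads (41 to 76), Sfrp genes 84.5 (35 to 142) and the 3 Dkk genes with an entry 48 (13 to 49). The median over all genes with a gene-end entry was 97 reads. It was exceeded by 8 of 10 Fzd genes, by 1 of 4 Sfrp genes (Sfrp2) and by no Wnt, Rspo or Dkk gene. That made 9 of 39, against 49.6% of all genes with such an entry. Wnt9a, the deepest ligand gene, had 96 reads with an exact 95% Poisson interval of 77.8 to 117.2, which includes 97. Wnt10b, the shallowest, had 18 reads with an interval of 10.7 to 28.4. At the other end, Fzd5 had 206 reads with an interval of 178.8 to 236.1. These intervals cover counting error only, and not the choice of the deepest entry of each gene.

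**Figure D3:**
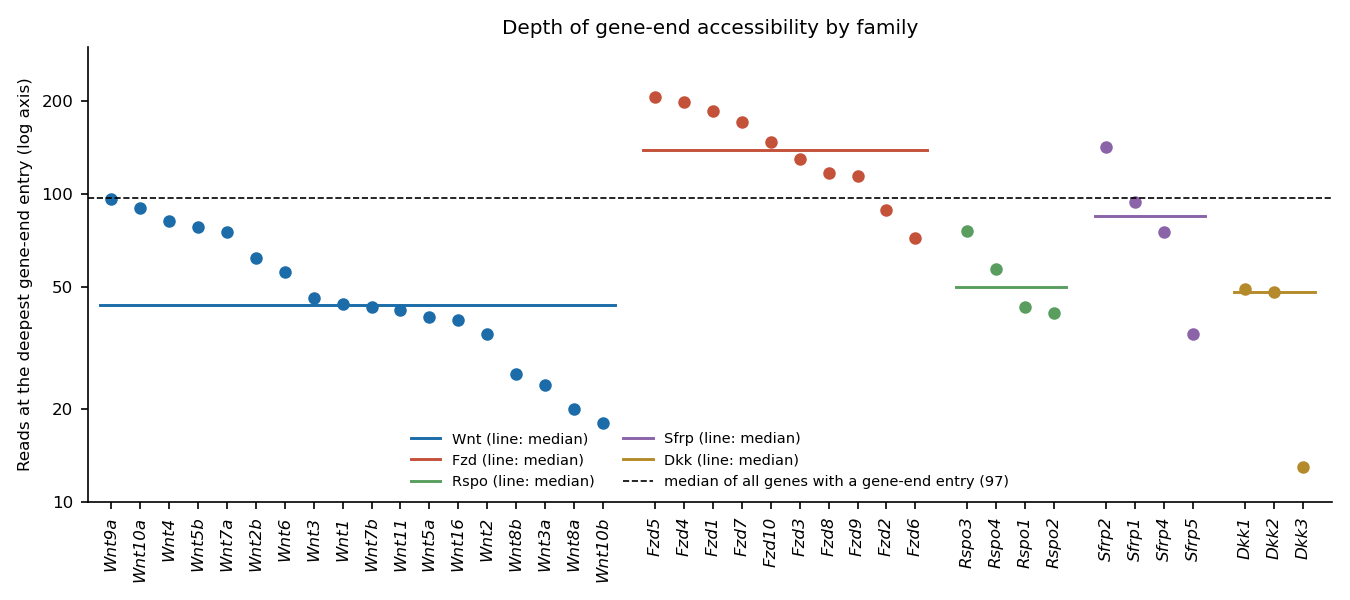
Reads at the deepest entry within 1 kb of either gene end (vertical axis, log scale), 1 point per gene, with a line at each family's median and a dashed line at the median of all genes with such an entry (97). The 18 Wnt genes lie between 18 and 96, and 8 of the 10 Fzd genes lie above the dashed line.

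Fold and depth did not order the families in quite the same way, since the fold divides by a local background that itself differed. At these entries the median background was 19.8 reads for Fzd genes and 9.59 for Wnt genes, against 10.7 over all genes. The median of the highest gene-end fold was 4.44 for Wnt, 7.76 for Fzd, 5.44 for Rspo, 5.95 for Sfrp and 3.56 for Dkk genes, against 8.17 over all genes. Fzd1, Fzd4, Fzd5 and Fzd6 lay above 8.17, and no gene of the other families did.

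The site of the strongest entry also separated ligands from receptors. The entry with the highest fold lay within 1 kb of a gene end in 2 of 19 Wnt genes (Wnt4 and Wnt9a), 7 of 10 Fzd genes, 3 of 4 Rspo genes, 3 of 4 Sfrp genes and 0 of the 3 Dkk genes with an entry. In all this held for 15 of the 40 genes with an entry, against 57.3% of all such genes. For 11 Wnt genes the strongest entry lay between genes, and for 6 it lay inside the ligand gene. Of these 6, that of Wnt5b was 0.333 kb from an end of the enclosed gene Fbxl14, and that of Wnt9b was 7 bp from the RefSeq start of Wnt9b. Over all genes with an entry, 19.6% had their strongest one between genes. No test of the difference between the families was made.

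A larger share of the set's entries than of all genes' entries lay between genes. Of the 397, 174 (43.8%) were between genes and more than 1 kb from an end, against 29.4% over all genes. A further 131 were inside the gene, against 46.4%, and 84 (21.2%) were at a gene end, against 21.4%. Fzd genes are short, with a median length of 4.59 kb, and 60.6% of their entries were between genes against 9.09% inside. Wnt genes had a median length of 22.9 kb, with 30.8% of entries between genes and 47.6% inside. In the 27 genes with a known strand, 93 entries lay upstream of the gene, 55 downstream and 121 inside, with gene-end entries included. Fzd genes had 40 upstream, most of them at Fzd10 and Fzd7, and 15 downstream. Wnt genes had 36 and 20. The shares over all genes are not given here, so these counts are not shown to be particular to the set.

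The starts of the set were rich in CpG. RefSeq (GRCm38.p6) gave 30 windows of 300 bases, reaching 250 bases before to 50 after the start, for the 27 genes. Their median GC content was 69.8%, against 56.3% for 21263 windows of protein-coding genes. The median number of CpG was 28, against 13, and the observed-to-expected CpG ratio was 0.782, against 0.567. The ratio was 0.858 for Fzd, 0.821 for Rspo, 0.795 for Wnt, 0.652 for Sfrp and 0.413 for Dkk windows. An entry within 1 kb was found for 28 of the 30 windows (93.3%), against 65.7% of all windows. Across these 28 windows, the Spearman correlation of the CpG ratio with reads was 0.454, against 0.461 across 13963 windows of all genes. The windows share 1 library pool, and windows of the same gene are not independent.

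**Figure D4:**
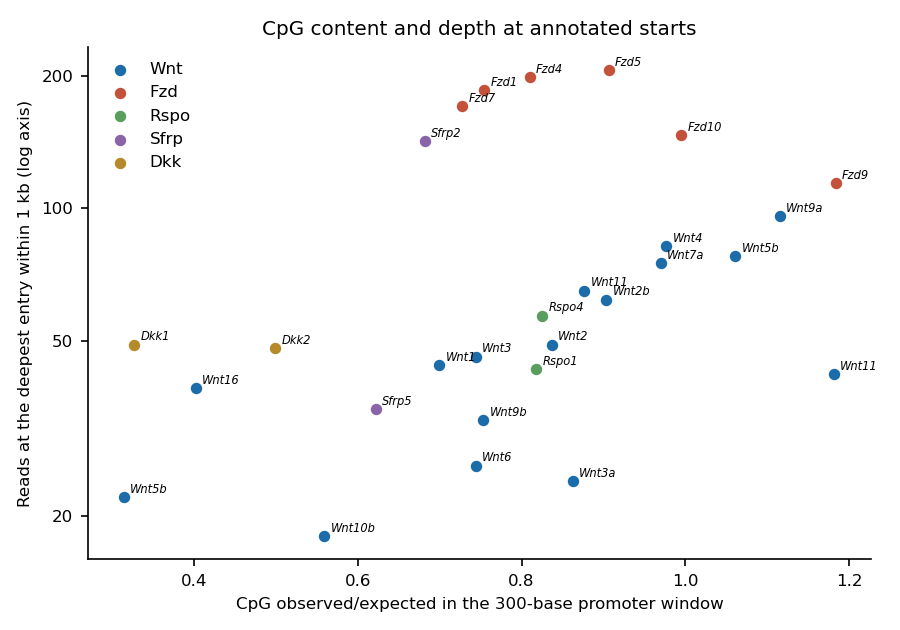
Reads at the deepest entry within 1 kb of each RefSeq start (vertical axis, log scale) against the observed-to-expected CpG ratio of the 300-base window (horizontal axis), 1 point per start, coloured by family; Wnt5b and Wnt11 appear at more than 1 start. The 6 Fzd starts shown lie at 114 reads or more, whereas Wnt starts with like CpG ratios reach at most 96. Fzd2, Fzd3, Fzd6 and Fzd8 have no start in the RefSeq promoter table and are not shown. Their deepest gene-end entries had 89, 130, 72 and 117 reads.

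Short motifs were searched in these windows on both strands. The TCF/LEF cores CTTTGA or CTTTGT, the DNA sites of the nuclear factors that work with β-catenin, were in 8 of 30 windows (26.7%), against 28.3% of all windows. The GC box GGGCGG was in 22 windows (73.3%), against 46.2%. The E-box CACGTG was in 3 windows, against 7.84% of all windows, and the E-box CAGCTG in 2 (6.67%), against 15.6%. The TATA box TATAAA was in 4 (13.3%), against 12.6%. A match is a run of letters and does not show that a factor binds. Below, for each family, the window of the gene with the highest gene-end fold and that of the gene with the lowest are shown, among genes with a window in the table, so that the sequence can be read beside its signal. Each is given 5′ to 3′ on the gene's strand, with the start after base 250 and capitals marking motif matches.

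Among the ligands, Wnt5b had the strongest gene-end entry, 7.84-fold with 78 reads, and Wnt10b the weakest, 2.01-fold with 18 reads. The Wnt5b window (minus strand, chr6:119544298-119544597) held 47 CpG and 3 GC boxes, 2 of them overlapping. The Wnt10b window (minus strand, chr15:98778101-98778400) held 18 CpG and none of the motifs. The nearest summit was 294 bases after the Wnt5b start and 315 bases before the Wnt10b start.
Wnt5b: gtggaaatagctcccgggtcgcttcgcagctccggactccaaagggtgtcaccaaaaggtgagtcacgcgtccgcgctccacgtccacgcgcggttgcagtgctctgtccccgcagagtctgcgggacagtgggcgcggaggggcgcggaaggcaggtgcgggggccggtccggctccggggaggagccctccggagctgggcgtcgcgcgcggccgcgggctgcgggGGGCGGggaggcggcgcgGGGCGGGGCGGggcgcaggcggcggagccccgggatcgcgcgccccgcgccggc
Wnt10b: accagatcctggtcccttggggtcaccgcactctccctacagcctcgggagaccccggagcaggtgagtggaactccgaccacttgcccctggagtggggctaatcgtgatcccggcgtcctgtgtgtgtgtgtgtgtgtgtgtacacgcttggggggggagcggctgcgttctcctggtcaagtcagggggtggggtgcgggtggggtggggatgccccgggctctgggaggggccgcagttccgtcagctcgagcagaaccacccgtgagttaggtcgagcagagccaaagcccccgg

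Wnt5b, a ligand of the branch that does not use β-catenin, had 22 entries in 15 intervals (chromosome 6, 119432531 to 119544824). Of these, 20 lay inside the gene away from its ends. The strongest, 8.25-fold with 146 reads, was 46.8 kb from the nearer end in an interval of 2248 bp, the widest of the whole set. That summit stood 0.333 kb from an end of Fbxl14, a gene within the Wnt5b span, and 3 other summits of the interval lay inside Fbxl14. The gene-end entry of Wnt5b likewise lay inside a predicted gene, Gm52875, 0.294 kb from its end. Position does not say which gene such entries belong to. Wnt5b had 3 RefSeq starts, and its 2 inner ones had little signal. One had a deepest entry of 22 reads within 1 kb, and the other none, its nearest summit lying 5179 bp away. The outer start, with 78 reads, was also the one with the highest CpG ratio (1.06, against 0.314 and 0.194).

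Its relative Wnt5a, which is needed for outgrowth of limbs and the body axis, showed a different layout. It had 13 entries, with 40 reads and 3.08-fold at its ends (chromosome 14, 28504543 to 28527448). Its strongest entry lay 93.5 kb beyond the gene in an interval of 159 bp (chromosome 14, 28620887 to 28621045). That entry had 19.2-fold and 121 reads over a background of 5.37, the 479th highest fold of the whole list. The next nearest gene, Erc2, was 142 kb away. An entry is given to Wnt5a by distance alone. Entries of like depth near Wnt1 and Dkk2, with 118 and 113 reads, stood in wider intervals of 1006 and 1396 bp. Whether the narrow entry near Wnt5a reflects open chromatin was not tested.

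Wnt7a and Wnt7b, known for blood vessel growth into the nervous system, had 14 and 17 entries. Wnt7a had 75 reads and 5.57-fold at a gene end and 6.98-fold with 108 reads 17.9 kb downstream. Wnt7b had 43 reads and 3.52-fold at its ends. Its 2 strongest entries were both on 1 side, 11.6-fold with 95 reads at 44.1 kb and 11.4-fold with 178 reads at 52.8 kb (chromosome 15, 85625450 to 85626326 and 85634236 to 85635302). Both exceeded the highest gene-end fold of any Wnt gene, which was 7.84.

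The roof plate ligands Wnt1 and Wnt3a had shallow ends. Wnt1 had 5 entries, with 44 reads and 3.66-fold at its start, and its strongest was 4.44 kb downstream with 6.77-fold and 118 reads. Wnt3a had 10 entries, with 24 reads and 3.58-fold at its ends. Its strongest was 8.89 kb downstream with 7.84-fold and 73 reads, followed by 1 inside the gene with 7.47-fold and 73 reads. The deepest entry of either gene thus lay outside the gene-end windows.

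Wnt3, which motor neurons are known to make later in development, had 12 entries. It had 46 reads and 4.97-fold at its start, and 87 reads and 7.04-fold inside the gene, 7.84 kb from the nearer end. Its span overlaps that of Wnt9b by 1098 bp. The start entry of Wnt3 and 7 others therefore count for both genes, and which of them they serve cannot be told from position. Wnt4, known from kidney tubules and from the ventral spinal cord, had 5 entries, with 82 reads and 6.39-fold at the deepest, beside its start, and 18 to 42 reads at the others. Wnt9a, a ligand of joint formation, had 4 entries with 96 reads and 6.83-fold at its start.

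The other ligands fell between these. Wnt11, a ligand of cell movement and kidney branching, had 15 entries and 2 RefSeq starts. The outer start had 42 reads and the inner one 65, while 3 summits of 1 interval 19.3 to 19.9 kb upstream reached 91 to 115 reads. Wnt10a and Wnt6, genes of skin and tooth that lie side by side, had 9 and 7 entries with 90 and 56 reads at their ends. The 90 reads lay at the higher-coordinate end of Wnt10a, whose other end had 26 reads. The 56 reads lay at the downstream end of Wnt6. The RefSeq start of Wnt6 lay 17550 bp inside its span and had 26 reads and 2.44-fold, whereas 8.82-fold with 98 reads stood elsewhere in the gene. Wnt2b, a lung-forming ligand together with Wnt2, had 62 reads and 6.61-fold at its end and 8.88-fold with 75 reads 6.32 kb upstream. Wnt2 had 35 reads at its end and 49 reads at its RefSeq start, which lies 2327 bp inside the span. Wnt16 had 7 entries and 39 reads at its end. Wnt8a, of the early embryo's primitive streak, had 6 entries and 20 reads at its end, and Wnt8b had 13 entries and at most 26 reads there. Wnt8a and Wnt8b were thus, with Wnt3a and Wnt10b, the ligand genes with the shallowest ends.

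Several ligand genes sit in pairs. Wnt1 and Wnt10b are 11.65 kb apart and had 7 entries over both genes and the gap, with 2 in the gap. Wnt6 and Wnt10a are 6.70 kb apart and had 11, with 2 in the gap. Wnt3a and Wnt9a are 16.1 kb apart and had 13, with 2 in the gap. Wnt3 with Wnt9b, which overlap, had 16. The gap entries were mostly gene-end entries. Those of the first pair lay 56 bp from Wnt1 and 259 bp from Wnt10b. Those of the second lay 2716 bp from Wnt6 and 31 bp from Wnt10a, and those of the third 102 and 261 bp from Wnt3a. The strongest entry in each gap was 3.66-fold, 3.53-fold and 3.46-fold in the order given, so no gap held an entry above the strongest of either neighbour.

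The receptors had the deepest ends. Fzd4, which serves as receptor of Norrin in retinal vessels, had the highest gene-end fold among receptors with a window in the table, 9.48-fold with 199 reads. The span of Tmem135 reaches past the Fzd4 start, and this summit lay 0.285 kb from the end of Tmem135, so it sits at the ends of both genes. Fzd9 had the lowest, 5.99-fold with 114 reads. The Fzd4 window (plus strand, chr7:89404116-89404415) held 32 CpG and 8 GC boxes, and the nearest summit lay 52 bases after the start. The Fzd9 window (minus strand, chr5:135250998-135251297) held 53 CpG and a CACGTG whose last letter is the first of a GC box. Its nearest summit, 3.25-fold with 62 reads, lay 137 bases after the start, and the 5.99-fold summit 142 bases before the start.
Fzd4: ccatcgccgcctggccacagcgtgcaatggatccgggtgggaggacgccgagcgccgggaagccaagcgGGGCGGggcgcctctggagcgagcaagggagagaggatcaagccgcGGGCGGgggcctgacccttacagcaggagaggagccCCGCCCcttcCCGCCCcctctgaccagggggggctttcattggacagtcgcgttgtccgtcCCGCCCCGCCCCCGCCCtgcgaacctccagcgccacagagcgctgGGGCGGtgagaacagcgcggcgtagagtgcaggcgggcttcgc
Fzd9: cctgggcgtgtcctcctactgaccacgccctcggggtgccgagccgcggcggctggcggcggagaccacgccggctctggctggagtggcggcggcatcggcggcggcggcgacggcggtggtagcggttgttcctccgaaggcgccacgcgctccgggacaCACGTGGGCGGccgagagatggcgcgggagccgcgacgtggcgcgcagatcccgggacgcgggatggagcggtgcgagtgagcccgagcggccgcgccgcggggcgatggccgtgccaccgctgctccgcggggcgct

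Fzd1, Fzd5 and Fzd7, receptors with broad roles in the embryo, resembled Fzd4 in depth at their starts. Fzd5 had 206 reads and 9.27-fold, the deepest gene-end entry of the set (chromosome 1, 64737086 to 64738235). Fzd1 had 186 reads and 9.09-fold (chromosome 5, 4756606 to 4758570). Fzd7 had 171 reads and 7.41-fold (chromosome 1, 59481397 to 59483190). These starts differed in what lay around them. Fzd5 had 4 entries in all, and the next highest fold was 1.90. Fzd7 had 15, among them 7.05-fold with 70 reads 58.9 kb upstream and 6.99-fold with 66 reads 44.1 kb upstream. Fzd4 had 10, and its strongest of all was 12.1-fold with 150 reads at 65.6 kb upstream, inside the neighbouring gene Tmem135.

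Fzd10, known from the dorsal neural tube, had 23 entries, of which 22 lay between genes. Its start had 147 reads and 6.89-fold (chromosome 5, 128599865 to 128601524). Each of the other 22 was below 4-fold, from 1.77 to 3.93, and they spread from 78.3 kb upstream to 52.9 kb downstream. Fzd2 had 15 entries, with 89 reads and 5.23-fold at its ends. Fzd3, the receptor of axon guidance and planar polarity, had 4. Its end had 130 reads and 8.11-fold, and a summit 16.8 kb inside the gene had 9.87-fold with 104 reads. Fzd6, which acts with Fzd3 in hair and tissue polarity, had 5 entries and the highest gene-end fold of the set, 10.3. It stood on 72 reads, the fewest of any receptor, over a background of 6.08 reads. The receptor gene with the highest gene-end fold was thus the one with the fewest reads there.

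The R-spondins, which bind Lgr receptors and so keep frizzled receptors at the cell surface, had modest ends. Rspo4, known in humans from nail formation, had 7.34-fold with 57 reads. Rspo1, known for its part in ovary development, had 5.11-fold with 43 reads, the lowest among R-spondins with a window in the table. The Rspo4 window (plus strand, chr2:151842677-151842976) held 31 CpG, a CACGTG and 2 GC boxes, with a summit 18 bases after the start. The Rspo1 window (plus strand, chr4:124986180-124986479) held 29 CpG and none of the motifs, with a summit 157 bases after the start.
Rspo4: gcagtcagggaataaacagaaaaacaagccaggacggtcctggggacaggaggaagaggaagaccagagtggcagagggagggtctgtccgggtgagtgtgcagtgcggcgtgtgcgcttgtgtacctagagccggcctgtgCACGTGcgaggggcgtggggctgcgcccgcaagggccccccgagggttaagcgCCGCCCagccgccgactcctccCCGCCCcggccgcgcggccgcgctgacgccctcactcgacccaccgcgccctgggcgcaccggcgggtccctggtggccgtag
Rspo1: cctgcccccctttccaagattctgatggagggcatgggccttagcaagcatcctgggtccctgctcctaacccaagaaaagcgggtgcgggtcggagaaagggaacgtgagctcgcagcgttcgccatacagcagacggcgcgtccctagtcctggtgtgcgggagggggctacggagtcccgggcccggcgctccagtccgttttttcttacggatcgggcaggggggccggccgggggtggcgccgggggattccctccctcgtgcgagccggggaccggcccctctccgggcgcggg

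The family had the longest genes, with a median of 57.4 kb. Rspo1 held a single entry, the one at its start. Rspo2, a gene of limb and lung development, had 13 entries with 41 reads at its end and at most 5.65-fold anywhere. Rspo3, needed for placental vessels, had 10 entries with 76 reads and 5.77-fold at its end, the deepest R-spondin end. Rspo4 also had 10. No R-spondin entry within reach exceeded 7.34-fold.

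Among the antagonists, Sfrp2 and Sfrp5 marked the highest and lowest gene-end folds of Sfrp genes with a window in the table. Sfrp2 had 6.45-fold with 142 reads and Sfrp5 5.44-fold with 35 reads, so their folds were close while their depths were not. The Sfrp2 window (plus strand, chr3:83766071-83766370) held 22 CpG and none of the motifs, with a summit 6 bases before the start. The Sfrp5 window (minus strand, chr19:42202203-42202502) held 15 CpG and 2 GC boxes. Its nearest summit, 5.20-fold with 33 reads, lay 262 bases after the start, and the 5.44-fold summit 437 bases after the start.
Sfrp2: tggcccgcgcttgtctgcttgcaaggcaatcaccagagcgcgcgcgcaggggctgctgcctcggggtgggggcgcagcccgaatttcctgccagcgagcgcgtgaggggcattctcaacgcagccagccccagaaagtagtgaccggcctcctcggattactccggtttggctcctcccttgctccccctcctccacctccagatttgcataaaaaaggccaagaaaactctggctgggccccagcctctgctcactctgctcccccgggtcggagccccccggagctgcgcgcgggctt
Sfrp5: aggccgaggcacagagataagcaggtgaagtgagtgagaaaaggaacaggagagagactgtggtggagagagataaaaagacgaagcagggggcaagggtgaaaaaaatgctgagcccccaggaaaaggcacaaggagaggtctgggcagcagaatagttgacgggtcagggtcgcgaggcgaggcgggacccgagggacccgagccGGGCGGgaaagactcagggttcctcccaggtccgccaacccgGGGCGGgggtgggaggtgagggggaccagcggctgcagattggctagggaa

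Sfrp1 and Sfrp2, known antagonists in the neural tube, had 16 and 15 entries, and Sfrp5 and Sfrp4 had 3 and 2. Sfrp1 had 94 reads and 7.99-fold at its end (chromosome 8, 23411178 to 23412392). A row of strong entries stood on the lower-coordinate side, with 7.90-fold at 11.8 kb, 7.02-fold at 17.1 kb, 6.96-fold at 31.4 kb and 6.28-fold at 50.3 kb. Sfrp2 had its strongest entry 15.5 kb downstream, with 7.79-fold and 71 reads. Sfrp4 had both of its entries in 1 interval at its end, with 75 and 42 reads.

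For the Dkk genes, Dkk1, the antagonist needed for head formation, had the higher gene-end fold of the 2 with a window in the table, 5.71-fold with 49 reads, and Dkk2 the lower, 3.56-fold with 48 reads. The Dkk1 window (minus strand, chr19:30549447-30549746) was the only printed one with both TCF/LEF cores. It held 2 CTTTGA, 1 CTTTGT and a TATA box, and 9 CpG, the fewest of those printed. The Dkk2 window (plus strand, chr3:132085042-132085341) held a TATA box, 2 GC boxes, 1 CTTTGT and 11 CpG. The nearest summits lay 65 bases before the Dkk1 start and 49 bases after the Dkk2 start.
Dkk1: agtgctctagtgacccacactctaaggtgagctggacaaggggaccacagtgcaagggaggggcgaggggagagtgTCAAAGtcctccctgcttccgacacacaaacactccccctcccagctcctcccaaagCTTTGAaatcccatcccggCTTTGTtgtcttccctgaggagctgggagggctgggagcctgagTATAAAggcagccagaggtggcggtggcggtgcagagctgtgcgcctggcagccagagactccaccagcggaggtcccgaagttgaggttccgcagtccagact
Dkk2: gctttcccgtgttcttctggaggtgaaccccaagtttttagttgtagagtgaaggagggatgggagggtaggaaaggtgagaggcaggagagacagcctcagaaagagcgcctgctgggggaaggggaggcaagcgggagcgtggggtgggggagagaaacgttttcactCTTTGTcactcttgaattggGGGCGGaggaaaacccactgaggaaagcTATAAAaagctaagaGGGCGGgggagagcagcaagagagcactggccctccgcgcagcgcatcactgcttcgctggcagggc

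Dkk2 had 24 entries in 18 intervals, 14 of them between genes, along a stretch of 295 kb. Its count was the highest of the set at a reach of 100 kb, whereas at a reach of 50 kb Dkk2 had 16 and Wnt5b 22. Fzd7 also had 24 with assignment among named genes, and Fzd10 equalled Dkk2 with a q-value under 0.05 (19 each) and with 1 entry per interval (18 each). With the upper 50% of entries, Dkk2, Wnt5b and Sfrp2 had 11 each. At a reach of 100 kb, the 24 entries of Dkk2 amounted to 8.13 entries per 100 kb, below the set's median of 11.3. Its strongest was 67.6 kb upstream, with 6.75-fold and 113 reads (chromosome 3, 132017464 to 132018859). Dkk1 had 9 entries and its strongest was 6.32 kb downstream, with 8.01-fold and 50 reads. Dkk3, a divergent member of the family, had 10 entries. It had 13 reads and 2.03-fold at its end, with an exact 95% Poisson interval of 6.92 to 22.2 reads, against 51 reads and 7.28-fold 20.9 kb away. Dkk4 had no entry in a stretch of 19.3 kb.

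The strongest entry of the whole set lay near Fzd8, a receptor of the embryonic brain. It was 36.7 kb from the gene, between genes, in an interval of 396 bp (chromosome 18, 9175948 to 9176343). It had 38.7-fold and 272 reads over a background of 6.05, the 134th highest fold of all 138387 entries. The next gene, Gjd4, was 102 kb away. At its own ends Fzd8 had 4.11-fold with 117 reads over a background of 27.7, the lowest gene-end fold of any receptor. The distant Fzd8 entry exceeded every gene-end fold of the set, of which the highest was 10.3. It was also narrower than the deep gene-end entries of Fzd5 (206 reads in 1150 bp) and Fzd4 (199 reads in 1543 bp). Whether so deep and narrow an entry reflects open chromatin was not tested.

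**Figure D5:**
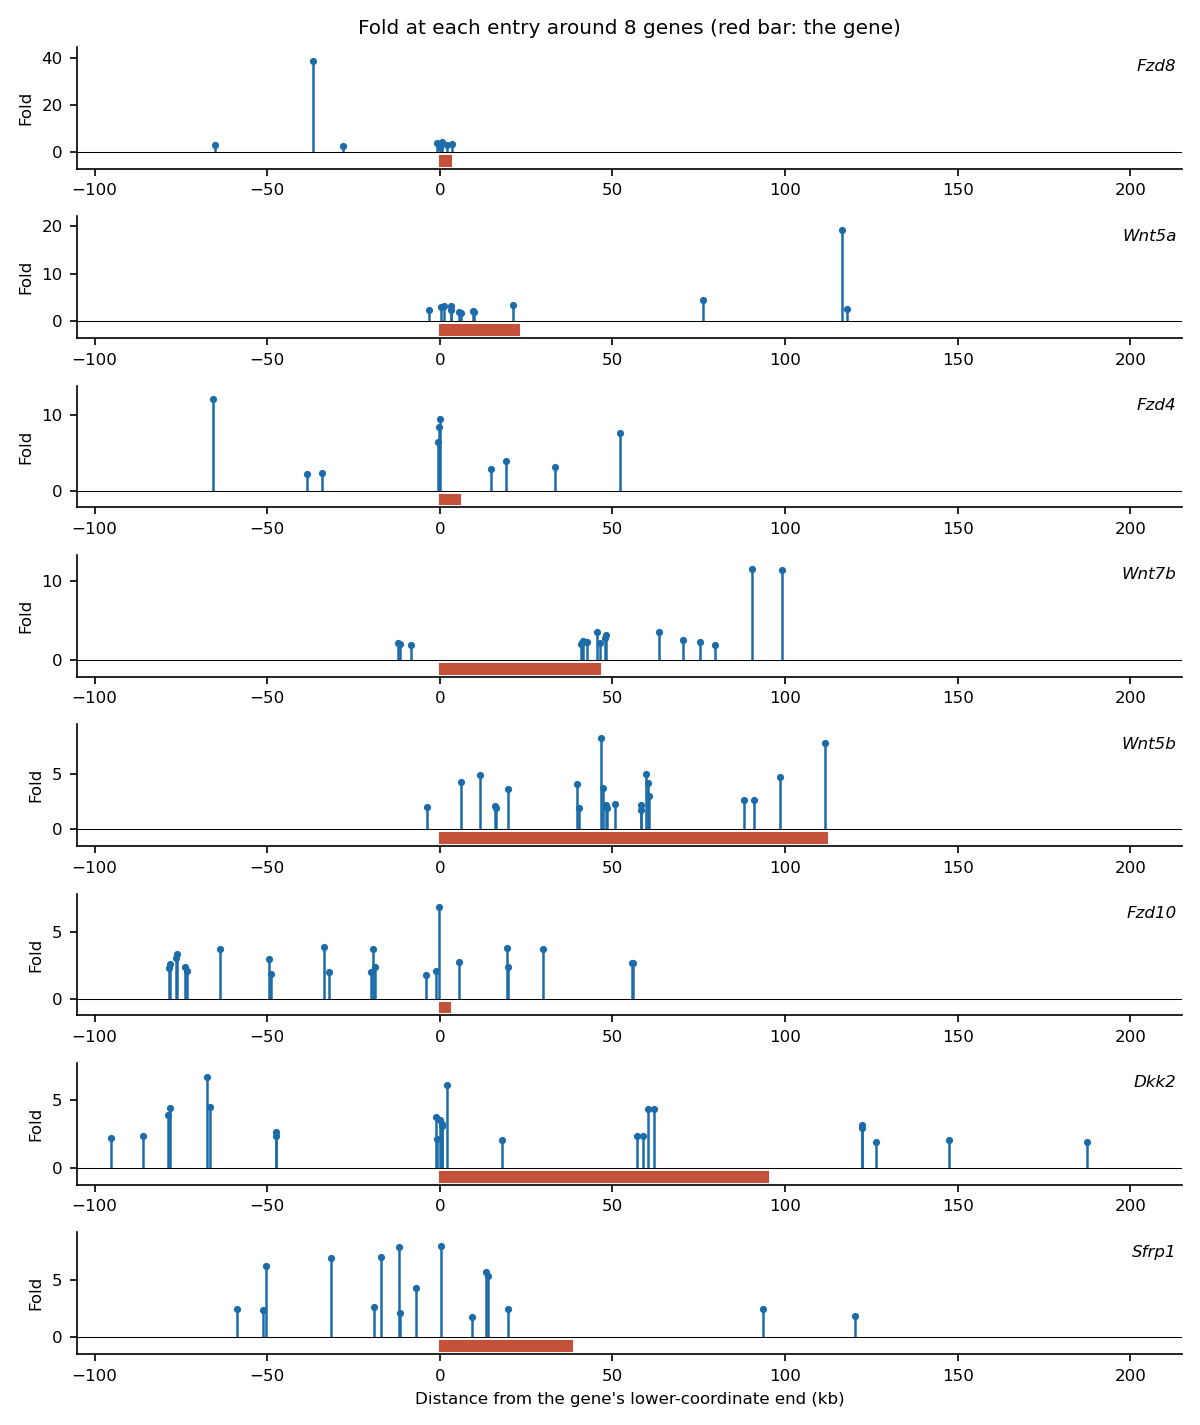
Fold of each entry (vertical axes, different scales) against its distance from the gene's lower-coordinate end (horizontal axis, kb) at 8 genes picked after their values were seen; the red bar is the gene, without strand. Fzd8, Wnt5a and Wnt7b have their highest stems far from the gene (38.7, 19.2 and 11.6-fold), whereas the stems of Fzd10 away from its start stay below 4-fold.

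The reach of 100 kb bounded these counts. The farthest entries inside it belonged to Dkk1 at 99.1 kb (1.89-fold, 11 reads), Dkk2 at 95.1 kb (13 reads) and Wnt5a at 95.0 kb (2.67-fold, 16 reads). Just beyond it, Fzd1 was the nearest gene of an entry at 102 kb with 10.6-fold and 103 reads, Fzd4 of 1 at 106 kb with 1.89-fold and 11 reads, and Rspo2 of 1 at 106 kb with 4.40-fold and 27 reads. In all, 53 entries beyond the reach had a gene of the set as their nearest, 15 of them at Fzd8 and 10 at Rspo3.

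Other genes of the pathway were taken from 7 lists of 47 genes in all. A gene-end entry was found at 45 of them, against 65.5% of all genes, and their median was 9 entries. Their deepest gene-end entry had a median of 98 reads. The 6 co-receptors and other receptors had a median of 13.5 entries, and Ror2, a receptor of Wnt5a, had the most with 31. The 5 R-spondin receptors and E3 ligases had a median of 17, led by the receptor Lgr5 with 25. The 7 other modulators had a median of 6, with 11 each at Frzb and Kremen1. Dkkl1 among them had no entry. For Wnt secretion, Wls, the carrier of Wnts to the cell surface, had 24 entries and Porcn, the enzyme that adds their lipid, had 3. The 12 genes of the cytoplasmic relay had a median of 5.5. Axin2, a scaffold of β-catenin destruction and a common target of the pathway, had 27 entries and none at its ends. Its strongest was 27.8-fold with 890 reads, 61.1 kb away. The fold and reads of that entry place its local background above 30 reads. An alternative setting left out entries with a background of 30 reads or more. Whether the distant Axin2 entry reflects open chromatin was not tested. The 8 nuclear effectors had a median of 20, with 47 at the TCF/LEF factor Tcf7l2. The 7 planar polarity genes had a median of 17, with 27 at the cadherin Celsr1.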

How the data were processed

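ATAC-seq of 1 group was analysed from 1 peak list that pools 2 replicates. Per the submitters' processing notes, MACS2 2.2.7.1, SAMtools 1.7.2, BWA 0.7.1.7, cutadapt 0.6.2, Trim Galore and the build mm10 were used. The sources used here do not give their settings, duplicate handling, any Tn5 read shift, the filter or library totals. Each deposited entry has a summit offset in bases, a score, a fold and the −log10 of a p-value and of a q-value. The fold is the authors' deposited ratio of reads to local background. The authors' deposited score equalled 10 times the −log10 p (99.999% of entries) and was left unused. The fold and −log10 values are the authors' throughout.

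Reads and background were solved from the fold, (reads + 1)/(background + 1), and the Poisson tail of the −log10 p. For 99.96% of entries the reads were whole to within 0.01. All 5000 simulated pileups (100.0%) were recovered. The smallest −log10 p was 2.00, and 17.7% of the list had q-values of at least 0.05. Reads here means the pileup at the summit, and Poisson intervals treat them as independent.

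Gene spans came from RefSeq (GRCm38.p6, the assembly behind mm10), for chromosomes 1 to 19, X and Y. Exons were not used. Strand, starts and promoter sequences came from the RefSeq promoter table, which held 27 of the 41 genes. Coordinates count from 1. All genes of the set are named. Of the other pathway lists, the gene with most entries and up to 2 genes without a gene-end entry are named. Fzd1 and other entries beyond 100 kb, Porcn, and the genes plotted by locus were chosen after their values were seen. The gene set and lists were chosen with earlier results of these data known. No test was made. Analyses used Python 3.11.15, NumPy 2.4.6, SciPy 1.17.1 and pandas 2.3.3, and plots Matplotlib 3.10.9. Alternatives changed the entries kept, the gene-end window, the reach, the gene table and the counting of summits.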

Additional observations from a re-analysis of the deposited data

How the results depend on the processing

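No paired analysis was possible because both replicates are pooled in 1 list, and for the same reason neither could be left out. Genes with a gene-end entry numbered 32 (500 bp window) to 40 (2 kb window) of 41, and 26 of 27 at RefSeq starts. The share of all genes ran from 60.03% to 70.5% over the same settings. Keeping the upper 50% of entries by −log10 q lowered the entries of the set to 200, against 397, and its median to 5, against 10, while the median of all genes was 2. With 1 entry per interval the set had 285 entries and a median of 7. The count of genes without an entry was 1 in every setting run. Alternatives added after seeing the data were interval overlap in place of summits, with 40 of 41 genes and 67.1% of all, and those for depth and for the site of the strongest entry. Between 6 and 8 Fzd genes (6 of 6 at RefSeq starts) and 0 Wnt genes exceeded the all-gene median of reads. Fzd2 and Fzd6, which lay below it at their gene ends, had no start in the promoter table and so were not among those 6. The strongest entry was at a gene end in 7 or 8 of 10 Fzd genes and 2 or 3 of 19 Wnt genes. The counts of 31 single genes moved by over 1.5 times with the upper 50% of entries, and of 12 with 1 entry per interval. Wnt3 had 4 entries and Fzd4 5 without summits that lay outside their own gene and inside another. Summits inside both genes, such as those of Wnt5b within Fbxl14, stayed counted in that setting. Fzd7 had 24 and Rspo1 2 among named genes, and Fzd10 14 at a reach of 50 kb. Fzd6 and Wnt2b had 3 each with a q-value under 0.05. Depth limits the weak entries: the smallest held 11 reads.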
